A study of Rattus norvegicus with 12 samples.

Results

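The injured left kidney of the rat 3 days after ischemia-reperfusion injury was compared with the left kidney of sham-operated rats, and the genes were read by whole families and functions. The comparison took in 8 of the 12 arrays of the series, chosen by the titles of the samples alone, with 4 arrays at day 3 and 4 sham arrays. All rats were female, of the inbred F344 strain and 10 weeks old. In the injured rats the blood supply of 1 kidney was stopped for a time and then restored, a unilateral injury, and the kidneys came 3 days after the operation. The sham rats had the operation without that injury, and their kidneys came 7 days after it, so the time after the operation and the injury cannot be told apart in this comparison. The other 4 arrays, from injured kidneys at day 7, served for the shared estimate of spread and for values given beside those of day 3. Each array held total RNA of a whole left kidney labelled with Cy3 and read on an Agilent single-colour microarray, where the brightness of a probe spot follows the amount of its RNA. In such bulk RNA, fewer cells of a type and less RNA per cell cannot be told apart.

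The kidney filters blood, and its tubules take back or secrete solutes through families of transporters, while their cells carry a dense set of enzymes that break down amino acids, fatty acids, drugs and steroids. When the blood supply fails, tubule cells are lost or lose these specialised genes, and surviving cells can re-enter the cell cycle to fill the gaps. Leukocytes enter the tissue and fibroblasts lay down matrix. The members of a gene family often share an ancestor, a promoter type or a position in the genome, so a family can move as a whole or part into members that rise and members that fall.

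In 3 families, for DNA replication, histones and the interferon response, some or most of the members share short words of sequence before their start. Printed are promoters of called members that hold the marked words, taken by the size of their change. They carry the words by that choice, so the shares given over each family, not the examples, describe it. The promoters are from RefSeq on the rat build GRCr8, matched by symbol for 10327 of the 18509 tested genes, and matches were sought on both strands in the 250 bases before the start. A match describes the letters and is neither a bound site nor a cause. Mcm6 (chr13:42404353-42404502, minus strand), Mcm5 (chr19:13488563-13488812, plus strand) and Gins1 (chr3:160184770-160184919, plus strand) code for parts of the helicase that opens DNA for copying. Capitals mark E2F words, which are TTTCGCGC, TTTGGCGC, TTTCCCGC and TTTGCCGC, and words on opposite strands can overlap.
Mcm6: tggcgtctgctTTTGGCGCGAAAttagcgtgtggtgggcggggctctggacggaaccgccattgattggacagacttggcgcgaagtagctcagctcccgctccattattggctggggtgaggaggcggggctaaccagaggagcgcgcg
Mcm5: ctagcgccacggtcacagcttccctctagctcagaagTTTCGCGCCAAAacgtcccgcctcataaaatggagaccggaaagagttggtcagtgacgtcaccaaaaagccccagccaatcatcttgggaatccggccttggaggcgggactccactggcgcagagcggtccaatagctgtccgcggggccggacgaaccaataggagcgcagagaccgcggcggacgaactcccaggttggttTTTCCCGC
Gins1: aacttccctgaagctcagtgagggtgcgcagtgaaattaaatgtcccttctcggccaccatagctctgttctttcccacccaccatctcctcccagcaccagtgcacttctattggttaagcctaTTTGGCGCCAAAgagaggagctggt

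An E2F word stood in 10 of 39 promoters of the DNA replication family (25.6%), against 1.81% of all 27457 promoters of the table and 3.04% of those of tested genes. In the whole window of the table, which runs 50 bases past the start, it stood in 17 of 39 (43.6%), against 2.25% of all promoters. The histone promoters H1f5 (chr17:47421625-47421874, plus strand), of a linker histone, and Hist3h2ba (chr10:44225271-44225420, plus strand), of an H2B histone, show the words CCAAT and TATAAA in capitals.
H1f5: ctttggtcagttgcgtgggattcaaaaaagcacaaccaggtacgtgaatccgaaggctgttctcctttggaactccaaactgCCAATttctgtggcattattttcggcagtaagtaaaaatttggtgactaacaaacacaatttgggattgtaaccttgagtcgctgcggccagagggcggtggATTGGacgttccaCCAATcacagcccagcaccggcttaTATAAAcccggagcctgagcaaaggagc
Hist3h2ba: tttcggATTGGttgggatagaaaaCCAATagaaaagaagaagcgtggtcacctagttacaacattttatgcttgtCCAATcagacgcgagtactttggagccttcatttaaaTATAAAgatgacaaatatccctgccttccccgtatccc

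CCAAT stood in 26 of 30 histone promoters (86.7%), against 34.3% of all promoters, and TATAAA in 13 of 30 (43.3%), against 13.1%. In the DNA replication family CCAAT stood in 19 of 39 promoters (48.7%). The interferon-stimulated genes are shown by Gbp2 (chr2:234005577-234005726, plus strand) and Ifi44 (chr2:243303841-243303990, minus strand), which were higher at day 3, and by Oas1b (chr12:41395853-41396002, minus strand) and Oas3 (chr12:41439582-41439731, plus strand), which were lower. Capitals mark the interferon-stimulated response element, which is GAAA, any 2 bases and GAAA again, on either strand.
Gbp2: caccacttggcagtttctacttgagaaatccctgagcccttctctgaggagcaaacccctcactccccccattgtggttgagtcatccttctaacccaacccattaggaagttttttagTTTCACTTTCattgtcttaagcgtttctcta
Ifi44: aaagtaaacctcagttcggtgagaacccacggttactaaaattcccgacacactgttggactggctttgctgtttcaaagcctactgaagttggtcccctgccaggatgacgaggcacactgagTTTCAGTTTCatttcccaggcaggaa
Oas1b: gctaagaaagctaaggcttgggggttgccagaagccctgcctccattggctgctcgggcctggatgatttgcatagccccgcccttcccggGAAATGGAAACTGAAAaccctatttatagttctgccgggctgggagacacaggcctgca
Oas3: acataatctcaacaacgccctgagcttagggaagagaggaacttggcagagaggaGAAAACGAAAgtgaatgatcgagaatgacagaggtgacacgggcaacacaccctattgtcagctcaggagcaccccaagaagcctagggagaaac

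The interferon word stood in 24 of 35 promoters of that family (68.6%), against 3.29% of all promoters. It stood in 15 of the 21 promoters of members called higher (71.4%) and in 2 of the 3 of members called lower (66.7%). With 3 promoters of lower members the 2 directions cannot be compared. Other words searched were TTTGAA (the CHR element), TGANTCA (AP-1), TGACGTCA (the cyclic AMP element), CACGTG (the E-box), CCGGAAGT (ETS) and TGANNNNGC (the antioxidant element), and the HNF1, HNF4 and sterol elements. The HNF1 element, known from kidney and liver genes, stood in 9 of all 27457 promoters. It was searched as a strict full-length pattern, so looser forms of it were not counted.

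Levels are log2 of the processed signal minus the 75th percentile of the array, so 0 is the brightness at that percentile. Differences are day 3 minus sham on that log2 scale, with ± for the standard error of the limma fit and n = 4 arrays in each group, and a gene is called at an adjusted p of 0.05. Of 18509 tested genes 57.3% were called, 24.2% higher and 33.1% lower, with a median difference of -0.13, and these are the shares against which a family is read. In 51.7% of tested genes all day 3 arrays lay above, or all lay below, every sham array. Before scaling, the 75th percentile was 2.22 times higher at day 3, with the smallest two-sided exact permutation p that 4 arrays against 4 can give (0.0286), so every difference is relative to that shift. Higher genes made up 42.2% of the called ones, against 58.6% with arrays scaled to their total signal, which moved the median gene to 0.15. With normexp background correction 3168 genes were called, 1643 higher and 1525 lower. The dim genes lay lower on balance than the bright ones, with medians of -0.39 in the dimmest 10% of genes and 0.03 in the brightest 10%. For that reason counts among the brighter genes, those above the median gene (9254, with 2692 higher and 2963 lower) are given beside the families that rest on dim probes. A gene could also pass the filter through the group where it was high, so a member above background on all day 3 arrays but not on all sham arrays was bound to lean upward. A member above background on all sham arrays but not on all day 3 arrays was in turn bound to lean downward. For families with many such members the counts over the members above background on all 8 arrays are given too. That choice leaves out genes that came up from below background or fell to it. Over all genes 15377 stood above background on all 8 arrays, 3453 of them higher and 5449 lower, with a median of -0.19. Some genes named below stood above background on only some arrays of a group, so their differences rest in part on dim spots. In sham these were Bbc3, Car13, Ces1a and Mcm3 (1 array each), Cenpf, Cfi and Gins1 (2) and Akr1b1, Capg, Fcnb, Gbp2 and Ifi44 (3). At day 3 they were Acot12, Hapln1 and Slc22a24 (1), Adh6, Akr1c2 and Col4a4 (2) and Aspn, Cry1, Exo1, Fmod, H1f8 and Tie1 (3).

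Markers of several cell types moved with the comparison. All 8 tested collecting duct markers and 8 of 10 proximal tubule markers were lower, and the median level of the proximal tubule markers was 5.0 to 5.12 on the sham arrays and 0.97 to 3.20 at day 3. All 6 markers of fibroblasts and pericytes were higher, with median levels of 0.19 to 0.81 in sham and 1.2 to 1.60 at day 3. Of 5 tested macrophage markers 3 were higher, while the macrophage markers Cd163, Mrc1 and Marco were not tested. The neutrophil markers S100a8, S100a9 and Elane were not tested either, and the 2 that were tested were not called. Thick ascending limb markers held 4 lower and 1 higher of 6, and those of T and NK lymphocytes 1 lower and 2 higher of 6. Red cell markers held 2 lower and none higher of 3. The podocyte, endothelial and distal tubule lists held 3 of 6, 4 of 7 and 3 of 4 lower members and none higher. The part of these shifts in the family results below was not tested.

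**Figure D1:**
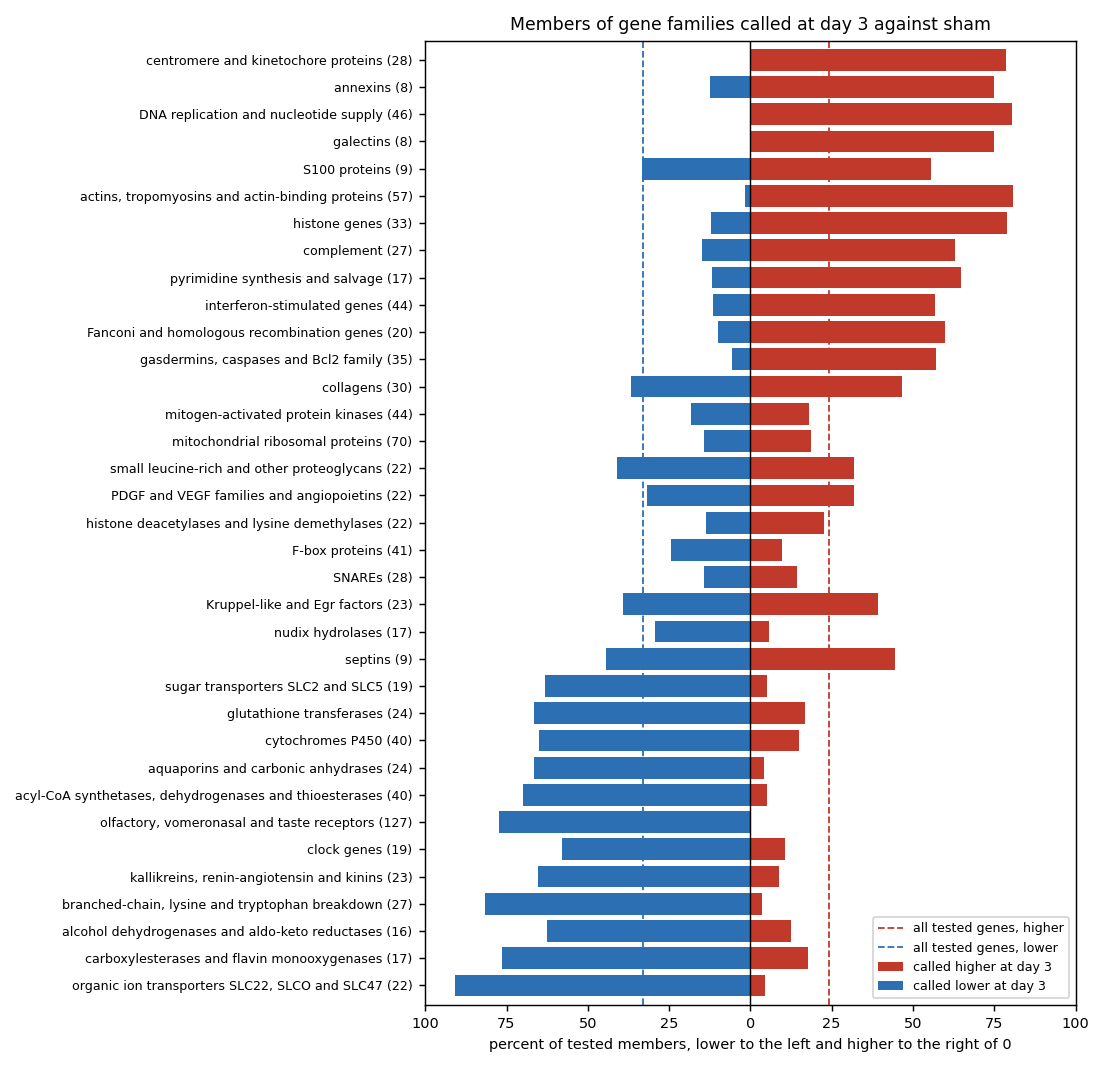
Share of tested members called higher (red, to the right) and lower (blue, to the left) at day 3 against sham in each described family, with the number of tested members in brackets and the families ordered by median difference. The dashed lines are the shares over all tested genes, 24.2% higher and 33.1% lower. The organic ion transporters have 20 of 22 members lower, and the DNA replication family has 37 of 46 higher and none lower.

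In the machinery that copies DNA most members tested were higher. Of 46 tested members 37 were higher and none lower, with a median of 1.67, and among the brighter genes 11 of 14 were higher. Of the members tested, 20 passed the filter through day 3, and of the 26 above background on all 8 arrays 18 were higher and none lower (median 1.16). Mcm6, a subunit of the replicative helicase, lay at -4.42, -5.97, -4.26 and -6.19 on the sham arrays and at -0.61, -0.14, -1.98 and -0.29 on the day 3 arrays. All sham values were below all day 3 values, and since no sham array stood above background the rise was at least 9.26-fold (adjusted p = 6.80e-05). Mcm3, another helicase subunit, lay at -3.12, -4.60, -3.32 and -4.62 in sham and 0.65, 1.08, 0.041 and 0.90 at day 3, a difference of 4.58 ± 0.37 (adjusted p = 5.70e-06). The helicase part Gins1 differed by 3.19 ± 0.39 and Mcm4 by 3.04 ± 0.22. Some parts did not pass. The origin-binding protein Orc2 differed by -0.45 ± 0.28 (adjusted p = 0.181) and the single-strand binding subunit Rpa1 by 0.35 ± 0.26 (adjusted p = 0.261).

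Kinetochore proteins, which join chromosomes to the spindle and check its grip, were in large part above background on every day 3 array but not on every sham array. Of 28 tested members 22 were higher and none lower, with a median of 2.72, or 2.24 when members not seen in sham are set at their lower bound. Because 19 of them passed the filter through day 3, that count and median are no measure of the family. Of the 9 members above background on all 8 arrays 4 were higher and none lower (median 0.60), and of 5 among the brighter genes 4 were higher. Bub1, a kinase of the spindle checkpoint, lay at -6.43, -6.32, -5.42 and -4.61 in sham, above background on no array, and at -0.73, -0.26, -1.40 and -0.42 at day 3, so it was at least 9.6-fold higher (adjusted p = 3.20e-05). Spc25 and Ttk, of the microtubule-binding complex and the checkpoint, were at least 7.25-fold and 6.56-fold higher. Cenpf was bright enough on 2 sham arrays and differed by 4.38 ± 0.45 (adjusted p = 1.95e-05). Not every protein of the kinetochore followed. Zwint, a linker of the outer kinetochore, had levels of 3.55, 3.75, 3.39 and 3.46 in sham and 3.48, 3.29, 3.29 and 3.38 at day 3, groups that overlapped (adjusted p = 0.348).

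Histone genes, which pack newly made DNA, were higher in most members. Of 33 tested members 26 were higher and 4 lower (median 1.29), and among the brighter genes 21 of 23 were higher. The linker histone H1f5 was above background on no sham array and at least 14.7-fold higher (adjusted p = 1.58e-05), and Hist3h2ba was at least 5.93-fold higher. Among the core histones, the H3 gene Hist2h3c2 lay at 2.26, 2.03 and 1.69 on 3 sham arrays, with the spot of sham replicate 2 set aside as an outlier, and 5.20, 5.46, 4.86 and 5.63 at day 3, a difference of 3.29 ± 0.31 (adjusted p = 1.83e-05). Hist1h2ail1, an H2A gene, lay at 2.85, 2.55, 2.72 and 2.35 in sham and at 5.78, 5.95, 5.73 and 6.10 at day 3, without overlap. The members that fell were dim germline or variant genes apart from Hist1h2bq, and H1f8, an oocyte linker histone, fell by 1.37 ± 0.36. Core histone genes are near copies of each other, so a probe may bind several of them and single members are uncertain.

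Nucleotide supply rose in part, and the recombination genes were mostly too dim in sham to read as a family. In pyrimidine synthesis and salvage 11 of 17 members were higher and 2 lower (median 1.07), with 7 of 11 higher among the brighter genes. Of the 13 above background on all 8 arrays 8 were higher and 2 lower (median 0.65). Tk1, the cytosolic thymidine kinase of dividing cells, lay at 0.37, -0.31, -0.19 and 0.15 in sham and 2.75, 2.78, 2.49 and 2.98 at day 3, a difference of 2.75 ± 0.24 (adjusted p = 9.61e-06). Tk2, its relative in mitochondria, went the other way and fell by 0.55 ± 0.17 (adjusted p = 0.0135). Ctps1, which makes CTP, differed by 1.83 ± 0.26. Of the Fanconi and recombination genes 12 of 20 were higher and 2 lower (median 1.02), but 12 of them passed the filter through day 3, so these are no measure of the family. Of the 7 above background on all 8 arrays 2 were higher and 1 lower (median 0.078). Exo1, a nuclease that trims DNA ends, fell by 1.04 ± 0.22. With normexp background correction the median of these genes was -0.56.

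**Figure D2:**
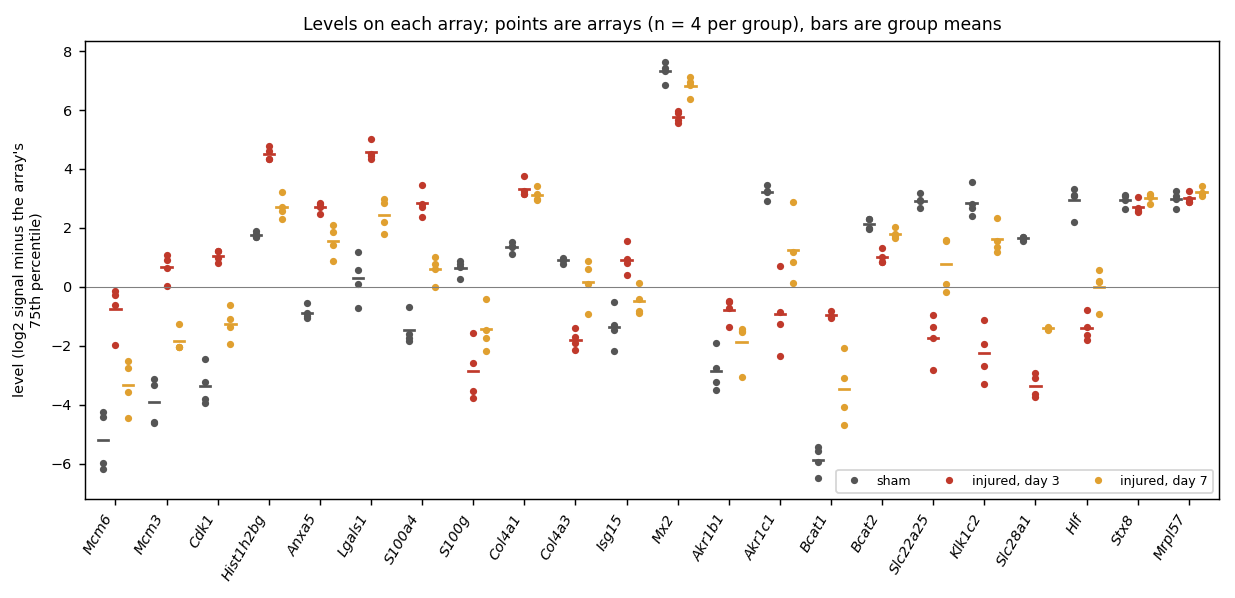
Level on each array (points, log2 signal minus the 75th percentile of the array) of genes described in the text, in sham (grey), at day 3 (red) and at day 7 (yellow), with 4 arrays in each group and a bar at the group mean. Mcm6, Cdk1, Lgals1 and Bcat1 lie above sham at day 3 without overlap, Slc22a25, Klk1c2 and Slc28a1 below it, and the groups overlap for Stx8 and Mrpl57.

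The actin cytoskeleton rose almost as a block. Of 57 tested actins, tropomyosins and actin-binding proteins 46 were higher and 1 lower (median 1.31), and among the brighter genes 39 of 48 were higher and none lower. Tmsb4x, which holds actin monomers in store, lay at 2.65, 2.57, 2.59 and 2.88 in sham and 5.01, 5.03, 5.10 and 5.32 at day 3, a difference of 2.44 ± 0.16 (adjusted p = 2.34e-06). Its relative Tmsb10 differed by 2.43 ± 0.16. Flna, a crosslinker of actin, and Capg, a capping protein, differed by 2.67 ± 0.28 and 3.33 ± 0.32. Tagln, a protein of contractile cells, rose from -2.78, -1.22, -2.64 and -1.86 to 0.78, 0.99, 1.68 and 1.58. The lone member that fell was Actg2, an actin of smooth muscle, by 1.06 ± 0.31 (adjusted p = 0.0124). Ezr, which ties actin to the microvilli of tubule cells, lay at 3.51, 3.82, 3.82 and 4.01 in sham and 3.92, 4.22, 3.80 and 4.21 at day 3 and did not pass (adjusted p = 0.207).

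Septins, which form rings and filaments beside actin, parted. Septin2, Septin7 and Septin9 rose by 1.71 ± 0.13, 1.68 ± 0.18 and 1.15 ± 0.19, and Septin5, Septin11 and Septin3 fell by 1.49 ± 0.22, 1.09 ± 0.26 and 1.09 ± 0.26. Of 9 tested members 4 were higher and 4 lower, with a median of -0.38. Septin2 lay at 1.26, 1.13, 1.32 and 1.35 in sham and 2.95, 2.96, 2.85 and 3.14 at day 3, and Septin11 at 1.51, 1.13, 1.36 and 0.77 and 0.34, 0.22, -0.55 and 0.41, neither with overlap.

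The small calcium-binding and sugar-binding proteins gave some of the steepest rises. Among galectins, lectins that bind galactose-bearing sugars, 6 of 8 were higher and none lower (median 1.46). Lgals1 lay at 0.59, 0.10, 1.19 and -0.70 in sham and 4.35, 4.53, 4.43 and 5.03 at day 3, a difference of 4.29 ± 0.38 (adjusted p = 8.98e-06), and Lgals3, made by macrophages and injured epithelium, differed by 3.35 ± 0.27. Lgals8 did not pass (adjusted p = 0.689). Among annexins, which bind membranes when calcium rises, 6 of 8 were higher and 1 lower (median 2.53). Anxa5 lay at -0.55, -0.88, -1.0 and -1.06 in sham and 2.70, 2.84, 2.47 and 2.80 at day 3 (adjusted p = 2.34e-06), while Anxa11 fell by 0.63 ± 0.12 (adjusted p = 7.48e-04).

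S100 proteins parted by member. S100a4, found in motile mesenchymal cells and leukocytes, rose from -0.67, -1.84, -1.62 and -1.73 in sham to 2.71, 2.81, 2.36 and 3.45 at day 3, and S100a6 by 3.77 ± 0.29. S100a11 and S100a10 rose by 2.98 ± 0.31 and 2.14 ± 0.27. S100g, the calcium-binding calbindin-D9k of the distal tubule, lay at 0.69, 0.77, 0.25 and 0.87 in sham and -2.60, -3.53, -1.55 and -3.78 at day 3 and fell by 3.51 ± 0.47 (adjusted p = 8.64e-05). S100a1 fell by 1.31 ± 0.26. In all, 5 of 9 were higher and 3 lower.

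Collagens went both ways, with 14 of 30 tested chains higher and 11 lower. The type IV chains of most basement membranes, Col4a1 and Col4a2, both rose, Col4a2 by 2.34 ± 0.23 (adjusted p = 1.69e-05). Col4a3 and Col4a4, which make the network of the glomerular basement membrane, fell. Col4a3 lay at 0.78, 0.92, 0.97 and 0.92 in sham and -1.70, -1.92, -1.41 and -2.15 at day 3, a fall by 2.69 (adjusted p = 4.35e-05), while Col4a4 fell by 2.79 ± 0.93 (adjusted p = 0.0225). Col4a1, the partner of Col4a2, lay at 1.52, 1.13, 1.34 and 1.37 in sham and 3.24, 3.16, 3.75 and 3.14 at day 3. Col4a5, the third chain of the glomerular network, rose by 0.72 ± 0.21. Col3a1, a fibril collagen, lay at 3.57, 3.30, 2.72 and 2.90 in sham and 5.41, 5.38, 5.88 and 5.50 at day 3, without overlap. Col18a1, the source of endostatin, differed by 2.72 ± 0.21, and Col15a1 by 2.67 ± 0.24. Col27a1 and Col17a1 fell by 2.95 ± 0.25 and 1.53 ± 0.33. Among the brighter collagen genes 13 of 15 were higher and 2 lower, so most of the chains that fell were among the dimmer genes. Podocyte markers were lower in 3 of 6 on the same arrays, and their part in the fall of the glomerular chains was not tested.

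Proteoglycans held members that rose and members that fell, at shares not far from those over all genes. Of 22 tested members 7 were higher (31.8%) and 9 lower (40.9%), against 24.2% and 33.1% of all tested genes (median 0.02). Bgn, a small proteoglycan bound to collagen fibrils, lay at 3.03, 2.95, 3.10 and 2.86 in sham and 4.30, 4.30, 4.29 and 4.34 at day 3, a difference of 1.32 ± 0.21 (adjusted p = 2.91e-04). Cd44, the hyaluronan receptor grouped with them here, rose by 1.30 ± 0.25 and the syndecan Sdc4 by 0.96 ± 0.16. Members known from cartilage and tendon fell, Hapln1 by 2.19 ± 0.37, Aspn by 2.02 ± 0.32 and Fmod by 1.96 ± 0.52, all dim at day 3. The glypican Gpc1 fell by 1.63 ± 0.36.

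Complement genes rose in the main, and a few of the lectin and terminal steps fell. Of 27 tested members 17 were higher and 4 lower (median 1.21), and among the brighter genes 10 of 17 were higher. Of the 22 above background on all 8 arrays 12 were higher and 4 lower (median 0.91). Fcnb, a ficolin of myeloid cells that senses sugars on microbes, lay at -3.92, -5.23, -3.15 and -4.03 in sham and 0.48, 0.17, -0.67 and 1.64 at day 3, a difference of 4.49 ± 0.56 (adjusted p = 5.83e-05). The inhibitor Cfi and the protease C2 rose by 2.61 ± 0.39 and 2.37 ± 0.21. C5, from which the terminal complex starts, lay at 2.42, 2.68, 2.43 and 2.71 in sham and 0.50, 0.17, 1.71 and -0.068 at day 3 and fell by 1.98 ± 0.31 (adjusted p = 2.66e-04). C8b and C8g, of the terminal complex, fell by 1.13 ± 0.35 and 0.78 ± 0.21, and Masp1, of the lectin pathway, by 1.15 ± 0.15. C1qb missed the threshold with 0.54 ± 0.22 (adjusted p = 0.0553).

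Interferon-stimulated genes rose in the main, with a group of antiviral members that fell. Of 44 tested members 25 were higher and 5 lower (median 1.06), and among the brighter genes 10 of 17 were higher and 4 lower. Of the members tested, 17 passed the filter through day 3, and of the 27 above background on all 8 arrays 15 were higher and 5 lower. Isg15, a small protein joined to others like ubiquitin, lay at -1.29, -0.51, -2.17 and -1.47 in sham and 0.95, 0.39, 0.83 and 1.54 at day 3, a difference of 2.29 ± 0.35 (adjusted p = 2.28e-04). Gbp2, a guanylate-binding protein, and Ifi44, whose promoters are printed above, differed by 3.37 ± 0.70 and 2.24 ± 0.44. Parp14 rose by 2.01 ± 0.28. Mx2, an antiviral GTPase, was among the brightest probes of the family and lay at 7.43, 6.85, 7.65 and 7.32 in sham and 5.91, 5.58, 5.96 and 5.67 at day 3, a fall by 1.54 (adjusted p = 8.53e-05). Before scaling, the 75th percentile was higher at day 3 by 1.15 (log2), and a spot this bright can come near the top of the scanner's range. The part of scaling and of that limit in the fall of Mx2 was not tested. Oas1b and Oas3, sensors of double-stranded RNA whose promoters are also printed above, fell by 1.12 ± 0.15 and 0.83 ± 0.21. Oas2 and Gbp1 fell by 1.39 ± 0.22 and 1.36 ± 0.25. With normexp background correction the median of the family was -0.013. The Oas genes are close relatives, so their probes may bind more than 1 of them.

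Genes of cell death included risers on both sides of the balance. Of 35 gasdermins, caspases and Bcl2 relatives 20 were higher and 2 lower (median 0.90), and among the brighter genes 8 of 12 were higher. Of the members tested, 13 passed the filter through day 3, and of the 21 above background on all 8 arrays 11 were higher and 2 lower. Birc3, an inhibitor of apoptosis switched on by NF-kB, was above background on no sham array, lay at 0.16, 0.19, 0.13 and -0.47 at day 3 and was at least 15.7-fold higher (adjusted p = 4.18e-06). Bbc3, a killer protein under p53 control, lay at -5.64, -2.17, -5.24 and -4.07 in sham and 0.42, 0.43, -0.76 and 0.37 at day 3, a difference of 4.39 ± 0.62. Casp12 rose by 3.05 ± 0.24 and Birc5, which also serves in mitosis, by 2.87 ± 0.29. Gsdme, a pore protein cut by caspases, fell by 1.16 ± 0.22 (adjusted p = 8.05e-04). Bcl2l1, a protector, lay at 3.45, 3.53, 3.68 and 3.65 in sham and 3.15, 3.25, 3.46 and 3.30 at day 3 and did not pass (adjusted p = 0.0735).

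Growth factor genes of vessels and their supporting cells held 7 higher and 7 lower of 22, near the shares over all genes, and 7 higher and 5 lower of 13 among the brighter genes. The receptors of endothelial cells fell, Kdr by 1.53 ± 0.23, Tie1 by 1.53 ± 0.34 and Tek by 1.31 ± 0.23. Kdr, the main receptor for VEGF, lay at 3.49, 3.14, 3.56 and 3.39 in sham and 1.95, 1.78, 2.20 and 1.53 at day 3 (adjusted p = 1.84e-04). Pdgfb, which draws pericytes, rose from -1.01, 0.16, -1.93 and -0.17 to 1.46, 1.72, 1.33 and 1.39 (adjusted p = 5.95e-04), and Pdgfra, a receptor of fibroblasts, by 1.17 ± 0.22. Angptl2 and Angptl4 rose by 1.92 ± 0.25 and 1.46 ± 0.31.

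Zinc finger factors of the Kruppel-like, Sp and Egr group were split, with 9 higher and 9 lower of 23. Klf6, induced by injury in many epithelia, lay at -1.60, -1.2, -1.35 and -1.27 in sham and 1.54, 1.45, 1.68 and 1.30 at day 3, a difference of 2.85 ± 0.34 (adjusted p = 4.35e-05). Egr2, an immediate early gene, was above background on no sham array and at least 6.37-fold higher, and Egr1 rose by 2.73 ± 0.41. Its relative Egr3 fell by 0.75 ± 0.22 (adjusted p = 0.0109). Klf15, a regulator of amino acid breakdown, lay at 0.23, 0.52, -0.23 and 0.32 in sham and -2.60, -2.59, -1.95 and -4.17 at day 3 and fell by 3.04 ± 0.41 (adjusted p = 9.82e-05). Sp2 fell by 1.98 ± 0.22 and Klf13 by 1.34 ± 0.24.

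Organic ion transporters, which carry drugs, urate and waste acids across the proximal tubule, had the lowest median of the families with 8 or more tested members. Of 22 tested members 20 were lower and 1 higher (median -2.40), and among the brighter genes 11 of 12 were lower. Day 3 replicate 3 stood apart, with a median level of the family of -0.99 against -1.74, -1.84 and -2.41 on the other day 3 arrays, and without it the median difference was -2.74. It was the only day 3 array on slide 1 and in scan batch 1, so the parts of rat, slide and scan cannot be told apart. The same array was highest for the carboxylesterases and flavin monooxygenases (-0.53 against -1.24, -1.45 and -1.79) and the sugar transporters (-0.84 against -1.78, -1.94 and -2.31), whose median differences without it were -2.05 and -1.14. Slc22a25 lay at 2.94, 3.17, 2.91 and 2.68 in sham and -1.37, -1.75, -0.96 and -2.82 at day 3 and fell by 4.65 ± 0.45 (adjusted p = 1.43e-05). Slc22a24, its neighbour on chromosome 1 of the build rn4 on which the array places its probes, fell by 7.29 ± 0.70. Slc22a13, a urate carrier, and Slc22a2, which takes up organic cations, fell by 4.41 ± 0.60 and 4.34 ± 0.49. Slco3a1, which carries prostaglandins, went the other way, from 0.25, 0.50, 0.50 and -1.31 in sham to 2.15, 1.86, 1.40 and 1.84 at day 3 (adjusted p = 0.00342).

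The enzymes that modify drugs and lipids fell across several families, each with a few members that rose. Of 40 tested cytochromes P450 26 were lower and 6 higher (median -1.06), and among the brighter genes 11 of 14 were lower. Above background on all day 3 arrays but not on all sham arrays were 5 members, and 4 the other way round. Of the 31 above background on all 8 arrays 22 were lower and 3 higher (median -1.3). Cyp4a8, a fatty acid hydroxylase, lay at 5.17, 5.22, 4.72 and 4.89 in sham and 1.78, 1.58, 2.42 and 0.72 at day 3 and fell by 3.38 ± 0.31 (adjusted p = 1.12e-05), and Cyp2c23, which makes epoxides of arachidonic acid in the rat kidney, fell by 3.00 ± 0.38. Cyp3a9 was above background on no sham array, lay at -1.39, -1.29, -2.24 and 0.76 at day 3 and was at least 7.59-fold higher (adjusted p = 3.65e-05). Cyp1b1, an enzyme of steroid and xenobiotic metabolism outside the liver, was at least 7.34-fold higher. Cyp24a1, which breaks down active vitamin D, rose by 1.70 ± 0.52. Cyp2d and Cyp4a genes have near copies, so single members are uncertain.

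Glutathione transferases were lower in most members, though not in every class. Counted by class after the values were seen, 5 of 6 tested alpha genes and all 3 theta genes were lower and none higher, while the mu class held 4 lower and 2 higher of 7. The alpha members Gsta1, Gsta3, Gsta2 and Gsta5 fell by 3.94 ± 0.40, 3.68 ± 0.30, 3.49 ± 0.45 and 3.20 ± 0.39, and Gstz1, of tyrosine breakdown, by 2.80 ± 0.23. Gstp1, of the pi class, rose by 0.59 ± 0.16 (adjusted p = 0.00824), and Gstm1, of the mu class, lay at 0.95, 0.10, 0.82 and 0.083 in sham and 2.34, 2.34, 2.38 and 2.28 at day 3 (adjusted p = 0.00163). Over the family 16 of 24 were lower and 4 higher (median -1.02). The alpha genes are close relatives, so their probes may bind more than 1 transcript.

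Carboxylesterases and flavin monooxygenases, which cleave esters and oxidise amines, held 13 lower and 3 higher of 17 (median -1.99). The flavin enzymes Fmo2, Fmo4 and Fmo1 fell by 3.28 ± 0.39, 2.95 ± 0.42 and 2.90 ± 0.42. Fmo2 lay at 3.34, 3.07, 2.78 and 3.28 in sham and -0.42, -0.72, 1.11 and -0.63 at day 3, without overlap. The esterase Ces1d fell by 3.82 ± 0.49 (adjusted p = 6.69e-05), while its relative Ces1a, above background on 1 sham array and all day 3 arrays, rose by 2.34 ± 0.37 (adjusted p = 2.70e-04).

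Aldo-keto reductases parted by subfamily. Akr1c1, which reduces steroids, lay at 2.91, 3.25, 3.23 and 3.47 in sham and -1.26, -0.84, 0.72 and -2.34 at day 3 and fell by 4.15 ± 0.62 (adjusted p = 1.88e-04), and Akr1c2 fell by 5.84 ± 0.69. Akr1b1, the aldose reductase that makes sorbitol, rose from -3.24, -1.90, -3.51 and -2.75 to -0.72, -0.52, -1.37 and -0.49 (adjusted p = 0.00126), and Akr1b8 by 0.60 ± 0.21. Adh6, an alcohol dehydrogenase, fell by 8.08 ± 0.77, and Adh5, the form found in all tissues, lay at 2.61, 2.50, 2.21 and 2.80 in sham and 2.41, 2.45, 2.68 and 2.47 at day 3 (adjusted p = 0.896). The 2 groups of enzymes together held 10 lower and 2 higher of 16 (median -1.72). Of these members 3 stood above background on all sham arrays and not on all day 3 arrays, and 2 the other way round. Of the 11 above background on all 8 arrays 7 were lower and 1 higher (median -1.25).

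Breakdown of branched-chain amino acids, lysine and tryptophan fell along its length. Of 27 tested members 22 were lower and 1 higher (median -1.69), and among the brighter genes 21 of 24 were lower and none higher. On the tryptophan branch, Haao lay at 2.11, 2.54, 1.83 and 2.17 in sham and -1.97, -1.53, -0.87 and -3.08 at day 3 and fell by 4.02 ± 0.48 (adjusted p = 4.44e-05), and Acmsd and Kmo fell by 3.51 ± 0.42 and 2.60 ± 0.34. On the lysine branch, Aass and Gcdh fell by 2.75 ± 0.33 and 2.77 ± 0.26. The 2 aminotransferases at the entry to branched-chain breakdown went opposite ways. Bcat2, the mitochondrial aminotransferase, lay at 2.01, 1.97, 2.30 and 2.31 in sham and 1.32, 0.85, 0.85 and 1.01 at day 3, a fall by 1.14 (adjusted p = 1.04e-04). Bcat1, the cytosolic form, was above background on no sham array, lay at -0.98, -1.06, -1.01 and -0.83 at day 3 and was at least 7.99-fold higher (adjusted p = 1.14e-05).

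Enzymes that activate and oxidise fatty acids fell too. Of 40 tested members 28 were lower and 2 higher (median -1.18), and among the brighter genes 23 of 31 were lower. Acsm2, a medium-chain synthetase of the proximal tubule, lay at 5.54, 5.76, 5.46 and 5.63 in sham and 3.06, 3.08, 4.05 and 2.12 at day 3, a fall by 2.52 (adjusted p = 2.26e-04). Acot12, a thioesterase, fell by 5.53 ± 0.55, and Acad10 by 2.62 ± 0.20. The long-chain synthetases Acsl5 and Acsl4 rose, Acsl5 from -0.53, -0.35, -0.26 and -0.48 in sham to 1.24, 1.22, 0.94 and 1.30 at day 3 (adjusted p = 8.69e-06) and Acsl4 by 0.90 ± 0.16. Acadl, a dehydrogenase of long chains, differed by 0.047 ± 0.15 (adjusted p = 0.801).

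All 10 tested kallikrein genes were lower, a count made after the values were seen and over genes that partly share probes. Klk1c2, a tissue kallikrein, lay at 3.54, 2.41, 2.68 and 2.80 in sham and -2.69, -1.93, -1.13 and -3.30 at day 3 and fell by 5.12 ± 0.43 (adjusted p = 6.96e-06). Klk1, which frees kinins in the distal nephron, fell by 4.78 ± 0.43, and Klk1b3 by 5.07 ± 0.59. The genes of the Klk1 group lie side by side on chromosome 1 of rn4 and are near copies, so that 1 probe may bind several of them. In the wider family of kallikreins, renin-angiotensin and kinin genes 15 of 23 were lower and 2 higher (median -1.28). Ace, the converting enzyme, differed by 0.50 ± 0.38 (adjusted p = 0.273), and Ece1, which converts endothelin, rose by 0.57 ± 0.16 (adjusted p = 0.0107).

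Channels and carriers for water, acid and sugar were lower in most members. Of 24 aquaporins and carbonic anhydrases 16 were lower and 1 higher (median -1.10). Aqp1, the water channel of the proximal tubule and thin limb, lay at 4.27, 4.38, 3.99 and 4.02 in sham and 0.76, 0.89, 2.36 and 0.33 at day 3, a fall by 3.08 (adjusted p = 6.84e-05), and Aqp2 and Aqp3 of the collecting duct fell by 1.71 ± 0.28 and 1.62 ± 0.33. Car13, a cytosolic carbonic anhydrase, was the member that rose, from -5.44, -6.21, -3.10 and -5.0 to -0.84, -0.37, -1.28 and -0.25 (adjusted p = 1.03e-04). Car2, the main cytosolic form, lay at 3.04, 3.39, 3.13 and 3.40 and 3.21, 3.31, 2.47 and 2.74, and did not pass (adjusted p = 0.194). Of 19 sugar transporters 12 were lower and 1 higher (median -1.01). Slc5a10, a sodium-coupled carrier of mannose and fructose, lay at 2.30, 2.40, 1.73 and 2.52 in sham and -2.35, -3.56, -0.63 and -3.31 at day 3 and fell by 4.70 ± 0.57 (adjusted p = 4.81e-05), while Slc5a2, the main glucose carrier of the early tubule, differed by -0.051 ± 0.35 (adjusted p = 0.912).

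Clock genes fell in their output arm and among their repressors. Hlf, Tef and Dbp, 3 related activators driven by the clock, fell by 4.33 ± 0.34, 2.41 ± 0.24 and 2.39 ± 0.31. Hlf lay at 3.31, 3.13, 3.10 and 2.21 in sham and -1.62, -1.37, -0.79 and -1.79 at day 3 (adjusted p = 5.41e-06). Per1 and Cry1, repressors of the core loop, fell by 2.54 ± 0.45 and 1.88 ± 0.52. Nfil3, a repressor that binds the same DNA word, rose from -2.83, -3.35, -2.95 and -1.71 to -0.61, -1.11, -0.69 and -1.40 (adjusted p = 0.00357). Bhlhe40 and Csnk1d differed by -0.015 ± 0.19 and 0.10 ± 0.25 and did not pass. Of 19 tested members 11 were lower and 2 higher (median -1.2). The sources used here do not give the hour at which kidneys were taken, and its part in these values was not tested.

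Olfactory, vomeronasal and taste receptors, which serve the nose and tongue, lay lower in all members that were called. Of 1049 such receptors with a probe 127 were tested, and of these 98 were lower and none higher (median -1.19). But 31 of them stood above background on all sham arrays and not on all day 3 arrays. Of the 76 above background on all 8 arrays 65 were lower and none higher (median -1.24). The median level of the 127 was -3.06, and 6 of them lay among the brighter genes. At such levels genes were lower on balance, and the 3 dimmest of 10 steps of level had medians of -0.39, -0.49 and -0.35. Vom2r18, among the brighter ones, lay at -0.62, -0.95, 0.041 and -0.98 in sham and -2.37, -3.32, -2.83 and -3.13 at day 3 (adjusted p = 8.89e-05). The part of brightness in this family's fall was not tested.

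**Figure D3:**
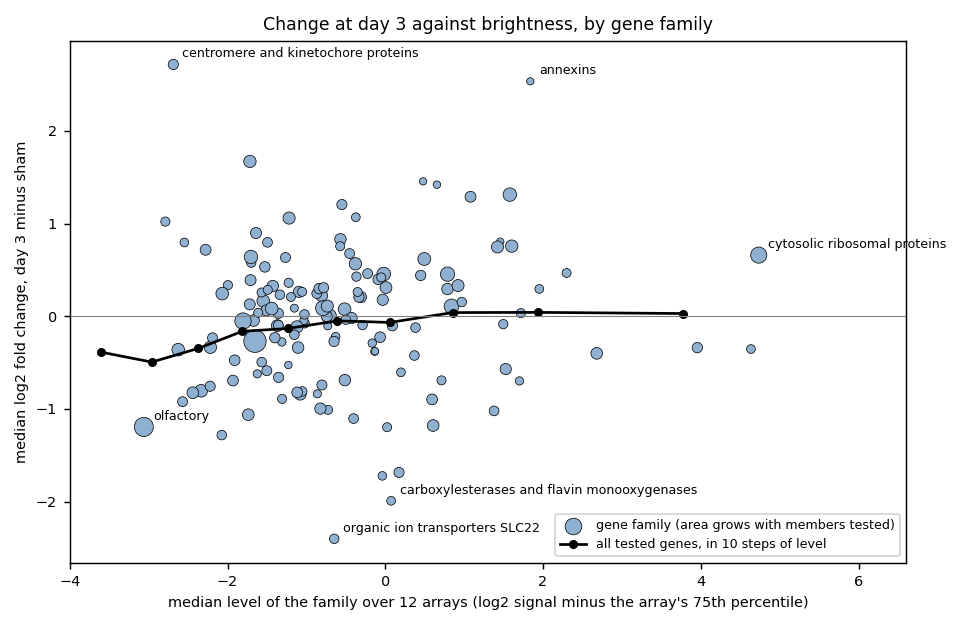
Median difference at day 3 (vertical, log2) against median level over the 12 arrays (horizontal, log2) for each family with 8 or more tested members, the area of a point growing with the members tested, and the same for all tested genes in 10 steps of level (black line). The black line runs from -0.39 in the dimmest 10% of genes to 0.03 in the brightest. The olfactory receptors lie at a level of -3.06 and a difference of -1.19, and the kinetochore proteins at a level of -2.69 and a difference of 2.72. Of the 28 kinetochore members 19 passed the filter through day 3 and so were bound to lean upward.

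In 6 families the share called was smaller than in the other families of 8 or more tested members. Among SNAREs, which fuse vesicles with membranes, 4 of 28 were higher and 4 lower, 28.6% called in all against 57.3% of all genes. Stx8 lay at 3.13, 2.96, 2.63 and 3.10 in sham and 2.68, 2.57, 3.05 and 2.54 at day 3 (adjusted p = 0.224). Among mitochondrial ribosomal proteins 13 of 70 were higher and 10 lower, with Mrpl57 at 2.98, 3.09, 2.63 and 3.26 and 2.88, 2.88, 3.26 and 2.99. F-box proteins, which pick targets for ubiquitin, held 4 higher and 10 lower of 41, nudix hydrolases, which cleave nucleotide derivatives, 1 and 5 of 17, and histone deacetylases with lysine demethylases 5 and 3 of 22. Mitogen-activated protein kinases held 8 higher and 8 lower of 44, yet Mapk4 fell by 3.69 ± 0.32 (adjusted p = 8.53e-06) and Map4k4 rose by 1.84 ± 0.25. A gene that misses the threshold is not shown to be equal in both groups.

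The largest single rises among genes seen on every array included many outside the families above. Cdk1, the kinase that starts mitosis, lay at -3.93, -3.82, -2.44 and -3.24 in sham and 0.81, 1.21, 0.98 and 1.2 at day 3, a difference of 4.41 ± 0.33 (adjusted p = 4.65e-06), and Ube2c and Prc1, of mitotic exit and the spindle midzone, differed by 4.04 ± 0.22 and 3.87 ± 0.37. Tnfrsf12a, the receptor of TWEAK, lay at -1.23, -1.55, -1.10 and -1.61 in sham and 2.82, 2.76, 2.68 and 3.10 at day 3 (adjusted p = 6.30e-06). B4galt5, which builds glycolipids, rose by 4.13 ± 0.38, the drug pump Abcb1b by 3.50 ± 0.27, the laminin chain Lamb3 by 3.47 ± 0.46 and the protease inhibitor Timp1 by 3.40 ± 0.31. Gja1, the gap junction protein connexin 43, and Ccn1, a matricellular protein, rose by 3.31 ± 0.47 and 3.29 ± 0.40. The largest falls included Slc28a1, a nucleoside carrier, from 1.64, 1.69, 1.70 and 1.55 in sham to -3.64, -3.09, -2.91 and -3.75 at day 3, a fall by 4.99 (adjusted p = 3.54e-08). Ppp1r1a, an inhibitor of protein phosphatase 1, fell by 4.69 ± 0.38, Dio1, which activates thyroid hormone, by 4.58 ± 0.36, the forkhead factor Foxq1 by 4.45 ± 0.54 and the deubiquitinase Usp2 by 4.40 ± 0.33. G6pc1, the last step of glucose release, fell by 4.39 ± 0.52, Upb1, of pyrimidine breakdown, by 4.31 ± 0.64, and Slc7a13, an amino acid carrier of the proximal tubule, by 4.35 ± 0.58. Csf2rb, a receptor chain shared by cytokines of leukocytes, fell by 4.62 ± 0.29 while 3 of 5 macrophage markers rose.

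Most families described were picked for their medians at day 3 and both days share the sham arrays, so day 7 values are given beside those of day 3 as a description. Over all genes 18% were higher and 13.4% lower at day 7 than at day 3, and this comparison shares the day 3 arrays with the one above. It called 5818 genes, but 3477 without day 3 replicate 4, 3706 without day 3 replicate 2 and 3863 without day 7 replicate 4. Of the replication genes 30 of 46 were lower at day 7 than at day 3, and of the kinetochore proteins 22 of 28, with medians against sham of 0.55 and 0.41. Of these members 20 and 19 were above background on all day 3 arrays but not on all sham arrays. Members kept for their day 3 level were bound to lean downward at day 7, so the kinetochore count is no measure of the family. Cdk1 lay at -1.08, -1.35, -0.63 and -1.95 on the day 7 arrays and Mcm3 at -1.26, -2.03, -2.04 and -2.04. Of the actin family 38 of 57 were lower than at day 3, and of the histones 24 of 33. Organic ion transporters had 12 of 22 members higher than at day 3 and none lower (median against sham -1.01), and the amino acid breakdown family 17 of 27 higher and 1 lower. Carboxylesterases and flavin enzymes had a median of -1.13 against sham and aldo-keto reductases with alcohol dehydrogenases one of -1.29, with 5 of 16 higher than at day 3. Complement was at 0.79, with 5 members higher and 3 lower at day 7 than at day 3.

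**Figure D4:**
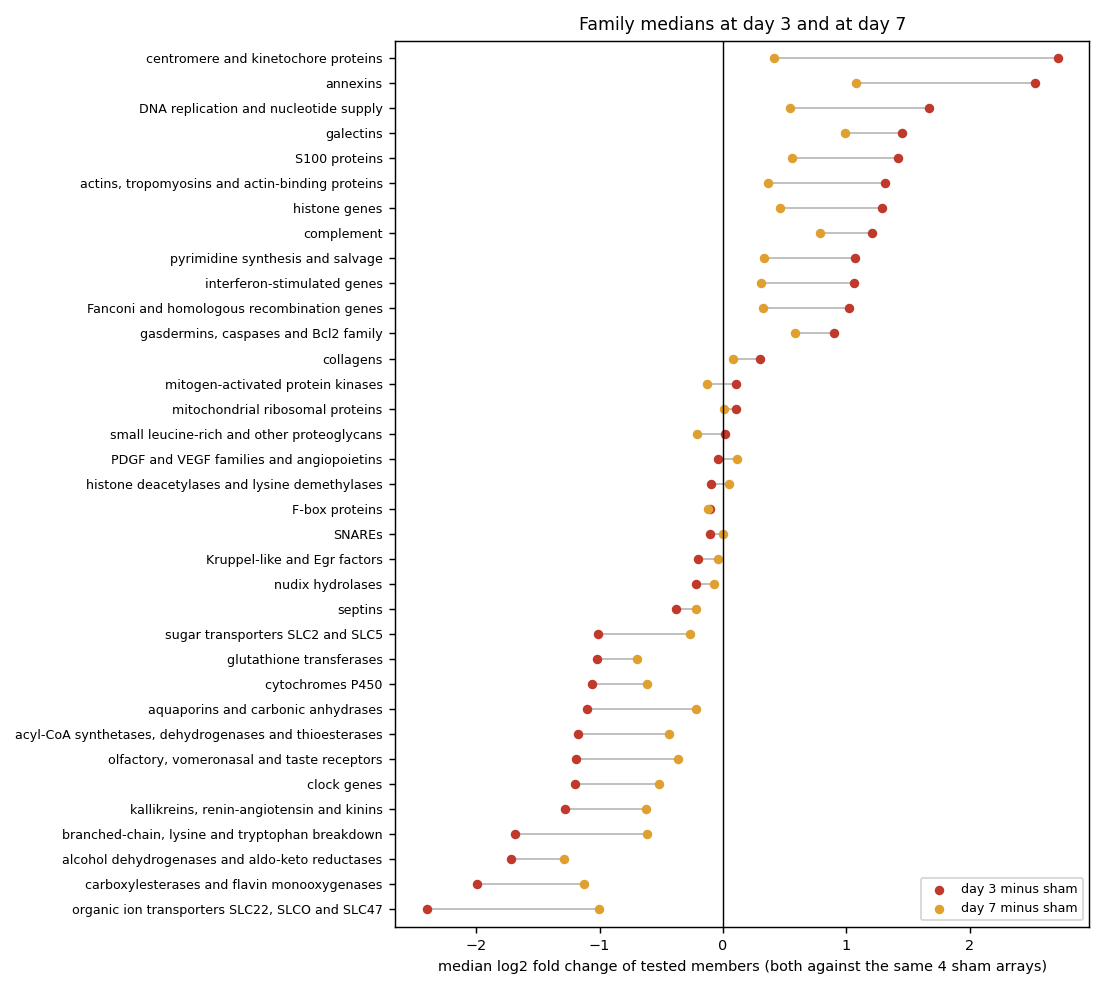
Median difference from sham of the tested members of each described family at day 3 (red) and day 7 (yellow), on the log2 scale, both against the same 4 sham arrays. The organic ion transporters go from -2.40 to -1.01. The kinetochore median goes from 2.72 to 0.41, but 19 of its 28 members passed the filter through day 3, so it is no measure of the family.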

How the data were processed

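Total RNA of left kidneys was labelled with Cy3, per the labels, which name a column kit for extraction and a labelling kit meant for DNA. The scanner software was Agilent Feature Extraction 9.5.1.1, per the file headers, and its processed signal already has background taken off. The processed signal, mean signal and local background are each an intensity without normalization between arrays, per the file headers, and flags for spots above background, saturated or outlying are 0 or 1. The authors' deposited value table holds log2 values centred on each probe (lowest correlation with remade values 0.998) and was an alternative.

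Here log2 of the processed signal minus the 75th percentile of each array was used. A probe was kept if the software marked it well above background on each of the 4 arrays of 1 or more groups (21071 of 30367), outlier spots were set aside, each group needed 2 values, and the brightest probe stood for its gene (18509). Names came from a current RefSeq rat table by accession for 18177 probes, by symbol for 2359 and by synonym for 615, and 9216 kept the name in the files. Genes were fitted with limma 3.58.1 in R 4.3.3 (lmFit, eBayes) over all 12 arrays with 1 mean per group, and two-sided p-values were adjusted by Benjamini-Hochberg over all tested genes. Fits were tested on simulated data. Where a group stood above background on no array, each of its arrays took the larger of its measured level and the dimmest level that any probe above background had there, and the fold is written as at least that size. The adjusted p beside such a fold is from the limma fit on the measured levels and does not test the bound. The p-values measure the spread between these samples, which may in part be technical.

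The 148 gene families were written by name pattern or list, and the members and lists were chosen with earlier results of these data known. H19 and Olr1, which a name pattern had caught, were taken out after values were seen because they are no histone or olfactory genes. Families described, among those with 8 or more tested members, were the 12 with the highest and the 12 with the lowest median, the 6 that parted most (at least 25% called each way) and the 6 with the smallest share called, 35 in all since 1 met both rules. Genes named were the 20 largest rises and 20 largest falls that an earlier account had not given, up to 6 called rises, 6 called falls and 3 bright members not called per family (every member of families of up to 15), cell type markers, and relatives moving the other way. A few genes that the rule allows are not reported here.

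The same replicate number in different groups did not pair rats, with correlations of deviations from -0.330 to 0.142. The 3 slides each held arrays of all groups, and there were 2 scan batches. The number of arrays limits the precision. Alternatives were normexp correction (offset 50), other scalings, filters and probe rules, blocks for slide, scan batch and replicate number, array weights, the 2 groups alone, and leaving out each array.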

Additional observations from a re-analysis of the deposited data

Results flagged for a closer look

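Between the injured groups, 3333 genes were higher and 2485 lower at day 7 than at day 3 by limma, a test of that difference itself. On single arrays, 21 of 367 groups of 4 held a value set apart from the other 3, a number near the 1 in 20 that chance gives. Day 3 replicate 2 was lowest for Col18a1 (1.70, nearest 1.83). Day 3 replicate 3 was highest for Acot12 (-3.12, nearest -5.10), Ces1d (-1.80, nearest -3.27), Col4a1 (3.75, nearest 3.24) and Fmo2 (1.11, nearest -0.42). Day 3 replicate 3 was lowest for Bbc3 (-0.76, nearest 0.37), Orc2 (-0.96, nearest -0.084) and Rpa1 (-0.57, nearest 0.26). Day 3 replicate 4 was highest for Aqp3 (0.51, nearest -0.36), Bgn (4.34, nearest 4.30) and Septin9 (1.45, nearest 1.26). Day 3 replicate 4 was lowest for Birc3 (-0.47, nearest 0.13). Sham replicate 2 was highest for Acsl4 (-1.31, nearest -1.63) and Septin9 (0.62, nearest 0.051). Sham replicate 3 was highest for Hist3h2ba (-3.17, nearest -6.0) and Ttk (-4.90, nearest -5.98). Sham replicate 3 was lowest for Akr1c2 (0.068, nearest 1.51), Ces1d (0.38, nearest 0.96) and Gja1 (-1.61, nearest -0.65). Sham replicate 4 was lowest for Csnk1d (2.83, nearest 3.91) and Slco3a1 (-1.31, nearest 0.25). Sham replicate 3 accounted for 5 of these values and day 3 replicate 3 for 7.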

How the results depend on the processing

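At day 3, normexp background correction called 3168 genes, 1643 higher and 1525 lower, and turned the medians of the interferon-stimulated genes (-0.013) and the Fanconi and recombination genes (-0.56); the genes brighter than the median gene, a subset chosen after seeing the data, held 5655 calls, 2692 higher and 2963 lower. Leaving out 1 array gave 9302 to 10534 called genes, 3900 to 4379 higher and 5402 to 6155 lower. Between day 7 and day 3, normexp called 159 genes, 82 higher and 77 lower, normexp without spots below their local background 5136 higher, and leaving out 1 array gave 3477 to 6125 called, 1992 to 3626 higher and 1485 to 2499 lower. The cause was not tested. The unscaled 75th percentile differed by 0.978 to 1.25 (log2) with 1 array left out, where the smallest exact permutation p that 3 against 4 can give is 0.0571. With the replicate number as a block, 10136 genes were called at day 3 (4253 higher, 5883 lower) and 4695 between the days (2712 higher, 1983 lower). Of the 184 genes checked one by one, 126 kept their call, or stayed without one, under normexp, 1 gained a call and 57 lost it. No called gene turned direction under any of these alternatives, and no other gene turned and gained a call. A gene without a call could change sign without being counted. Of the 35 family medians described, 22 moved by more than the spread between replicates under normexp besides the 2 that turned, 21 under total signal scaling, 17 among the brighter genes, 14 under normexp without spots below their local background, 10 with only probes above background on all arrays and 8 under quantile normalization. A turn was counted only for families with most of their tested members called in 1 direction. The replication family's share of promoters with an E2F word moved from 25.6% to 43.6% in the longer window. Dim probes limit what can be said of families near background.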

Other observations

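Other families are given by their counts at day 3 against sham, beside 24.2% of all genes higher and 33.1% lower. Families of protein making and clearing differed in how many members were higher, with 61 of 87 cytosolic ribosomal proteins higher and 2 lower (median 0.66), 35 of 46 proteasome subunits higher and 2 lower (0.76), and 24 of 46 nuclear pore and transport proteins higher and 1 lower (0.57). Splicing factors held 26 higher and 2 lower of 51, and TCP1 chaperonin subunits 6 higher and none lower of 8, while heat shock proteins held 6 higher and 6 lower of 21. Fewer members were higher in ribosome biogenesis (27 of 59, with 2 lower), RNA polymerase subunits (12 of 28, with 4 lower), aminoacyl-tRNA synthetases (12 of 36, with 3 lower) and RNA helicases (12 of 42, with 5 lower). Matricellular and elastic fibre proteins held 21 higher and 6 lower of 38, cholesterol synthesis 12 and 3 of 25, and toll-like receptors with the inflammasome 12 and 3 of 24, of which 8 passed the filter through day 3.

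Complex I held 21 lower and 1 higher of 40 (median -0.40), ATP synthase 8 lower and none higher of 17, vacuolar proton pump subunits 13 lower and 2 higher of 23, and mitochondrial carriers 25 lower and 2 higher of 38. Complexes II to IV held 14 lower and 1 higher of 29 and the citrate cycle 21 and 3 of 36, while mitochondrial import proteins held 5 lower and 6 higher of 22. Nuclear receptors, which include the sensors of steroids, fatty acids and retinoids, held 24 lower and 1 higher of 36 (median -1.0), and Hox genes 14 lower and none higher of 22. Amino acid transporters held 25 lower and 5 higher of 42, potassium channels 28 and 6 of 49, folate and one-carbon genes 19 and 3 of 32, and keratins 16 and 5 of 25. Keratins were dim, and the 2 among the brighter genes were both higher (median 1.26). Among the brighter potassium channels 7 of 11 were lower and 2 higher, and among the brighter amino acid transporters 11 of 21 lower and 3 higher. All 5 tested glucuronosyltransferases, of 12 with a probe, were lower (median -2.86). But 3 of them stood above background on all sham arrays and not on all day 3 arrays, and so were bound to lean downward. The 2 above background on all 8 arrays were both lower (median -1.8). Cilium and transport genes held 17 higher and 25 lower of 90 (4 and 7 of 25 among the brighter genes), and myosins 8 and 8 of 36.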
